A study of Mus musculus with 8 samples.

Results

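The miR-26 family of the mouse consists of 3 hairpins that give 5 mature products, and all 5 were taken by name from the 1915 mature miRNA names listed in each library: the guide strands mmu-miR-26a-5p and mmu-miR-26b-5p and the passenger strands mmu-miR-26a-1-3p, mmu-miR-26a-2-3p and mmu-miR-26b-3p, written below without the prefix for the mouse. The libraries hold small RNA of prefrontal cortex from mice on a C57BL/6 background at the age of 12 weeks, with 4 libraries from Fkbp5 knockout mice (replicates 1, 2, 4 and 5) and 4 from wild-type mice (replicates 1, 2, 3 and 4). The groups share strain, age and tissue, and the labels name no treatment. How the Fkbp5 allele was made, and whether each library is a separate animal, is not given in the sources used here, and p-values speak of library-to-library spread, which may be technical. Fkbp5 encodes a co-chaperone of Hsp90 in the glucocorticoid receptor complex. Its messenger RNA is outside this assay, which therefore gives no check of the genotypes.

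A miRNA hairpin is cut by Drosha and Dicer into a short duplex. The strand that is loaded into Argonaute and finds targets through its seed, bases 2 to 8, is called the guide, and its partner, most of which is degraded, the passenger. The miR-26 hairpins lie within genes of the Ctdsp family, which encode small phosphatases that the repressor REST recruits to silence neuronal genes outside neurons. In zebrafish, miR-26b represses the transcript of its own host gene, ctdsp2, as neurons differentiate. Ezh2, a histone methyltransferase, is a known target of miR-26.

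The mature sequences show which strands can share targets and which can be told apart by sequencing. Capitals mark the seed, and the sequences are those of RefSeq on GRCm38.p6.
miR-26a-5p: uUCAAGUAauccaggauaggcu
miR-26b-5p: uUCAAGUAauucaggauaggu
miR-26a-1-3p: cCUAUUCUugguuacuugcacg
miR-26a-2-3p: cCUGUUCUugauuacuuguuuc
miR-26b-3p: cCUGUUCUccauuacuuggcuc
Both guides carry the same seed. Counted from the 5′ end, with the base of miR-26a-5p first, the guides differ by C11U and C21U and by the length, 22 bases for miR-26a-5p and 21 for miR-26b-5p. None of the other mouse miRNAs in the RefSeq table has this seed. The passengers fall into separate seed groups, because A4G, with the base of miR-26a-1-3p first, lies within the seed: miR-26a-1-3p stands alone, and miR-26a-2-3p shares its seed with miR-26b-3p. miR-6932-3p and miR-7039-3p also have the seed of that pair, with highest listed values of 2 and 0 in any library.

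The hairpins show why the guide of miR-26a cannot be assigned to a locus while the passengers can. Capitals mark the mature arms, the 5p arm first, and all 3 hairpins are on the plus strand, as are their hosts.
Mir26a-1: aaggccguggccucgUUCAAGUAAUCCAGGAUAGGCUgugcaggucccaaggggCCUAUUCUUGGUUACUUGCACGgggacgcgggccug
Mir26a-2: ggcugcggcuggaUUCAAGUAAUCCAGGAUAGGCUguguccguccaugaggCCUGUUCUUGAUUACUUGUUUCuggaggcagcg
Mir26b: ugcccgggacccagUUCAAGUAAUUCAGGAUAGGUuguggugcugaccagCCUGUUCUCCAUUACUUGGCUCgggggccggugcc
The 5p arms of Mir26a-1 and Mir26a-2 are identical, and the files list them as a single value. Their 3p arms differ at 6 of 22 positions (A4G, G11A, C19U, A20U, C21U and G22C, with the base of miR-26a-1-3p first). Mir26a-1 lies at chr9:119031796-119031885 (GRCm38), in intron 5 of 7 of Ctdspl. Mir26a-2 lies at chr10:126995530-126995613, in intron 5 of 7 of Ctdsp2, and an exon of 1 other coding Ctdsp2 transcript overlaps the hairpin. Mir26b lies at chr1:74394310-74394394, in intron 4 of 6 of Ctdsp1. Intron numbers follow the longest coding transcript of each host in GENCODE M21, and in each host 2 introns follow the one with the hairpin. The folding energies computed for the hairpins were -49.4 kcal/mol for Mir26a-1, -44.5 for Mir26a-2 and -43.5 for Mir26b.

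The files call their values normalized counts. They are whole numbers whose library totals ran from 17.7 to 19.8 in the knockout and from 16.2 to 21.6 in wild type, in units of 1000000. Each whole number from 1 to 20 occurs in every library, as it would in raw counts, so whether the values were scaled before deposit is unclear. The depth in reads is therefore unknown, for the low passenger values too, and no counting interval is given. Values called rescaled below were divided by a factor per library (0.871 to 1.13 in the knockout, 0.838 to 1.21 in wild type) to make libraries comparable. Neuronal miR-128-3p, miR-9-5p and miR-124-3p summed to between 6393742 and 8172173 rescaled in the knockout and between 6206439 and 8029087 in wild type, so that miRNAs enriched in neurons were abundant in every library. Of 26 tested markers of other cells or regions 22 had a lower mean log2 value in the knockout under each of 5 scalings (the values as deposited among them), where 46.3% of all 600 tested miRNAs did. None of the 26 passed limma with Benjamini-Hochberg adjustment at 0.05 (0.00% of the 600), and 4 had an unadjusted p under 0.05 (4.17% of the 600), all lower in the knockout: miR-219a-5p of oligodendrocytes, miR-143-3p of smooth muscle, and miR-10a-5p and miR-10b-5p, typical of hindbrain and spinal cord.

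miR-26a-5p, the main guide of the family, was among the most abundant miRNAs of the cortex. It was listed at 1409575, 1598326, 1818854 and 1914706 in knockout replicates 1, 2, 4 and 5, and at 1891651, 2110924, 1450825 and 1466854 in wild-type replicates 1, 2, 3 and 4. The groups overlapped widely, with the highest and the second lowest value both in wild type. Its rescaled mean of 1691659 over all 8 libraries placed it at rank 4 of the 1915 names, between let-7c-5p and let-7a-5p. This order did not hold in each library: miR-26a-5p was below let-7c-5p in 7 of 8 and above let-7a-5p in 5 of 8. It held 9.01 ± 0.799% of all values in the knockout and 9.03 ± 0.542% in wild type (SD, n = 4 each).

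miR-26b-5p, the guide with the same seed from the Ctdsp1 locus, ranked at 29. It was listed at 48485, 56067, 61532 and 67937 in knockout replicates 1, 2, 4 and 5, and at 64424, 77047, 55122 and 51121 in wild-type replicates 1, 2, 3 and 4. The groups overlapped, and the libraries stood in the same order as for miR-26a-5p except that wild-type replicates 3 and 4 changed places. miR-26a-5p exceeded miR-26b-5p by 28.2- to 29.6-fold in the knockout and by 26.3- to 29.4-fold in wild type. miR-26b-5p therefore made up 3.35 ± 0.0683% of the guides in the knockout and 3.46 ± 0.163% in wild type (SD, n = 4 each). With the seed shared, both guides together took 9.33 ± 0.828% of each knockout library and 9.35 ± 0.568% of each wild-type library. Whether the alignment allowed mismatches, which could move reads between guides this alike, is not given in the sources used here.

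Both guides varied little between libraries once rescaled. Over all 8 libraries the SD of the log2 value was 0.059 for miR-26a-5p and 0.0865 for miR-26b-5p, against a median of 0.183 over the 205 tested miRNAs with a mean rescaled value of at least 1000. From the steadiest upward, they took places 5 and 11 of the 205. Likeness between miRNAs was taken as the SD over the 8 libraries of their log2 ratio, where a small value means a nearly constant ratio. miR-26a-5p was the miRNA most like miR-26b-5p among 204 compared (SD 0.0559, median 0.204). For miR-26a-5p, miR-543-3p of the Dlk1-Dio3 imprinted region came first (0.0483) and miR-26b-5p second, followed by miR-1843b-5p (0.0561), miR-1843a-5p (0.0608) and miR-186-5p (0.0724). The other 4 most like miR-26b-5p were miR-186-5p (0.0768), miR-1843b-5p (0.0841), miR-543-3p (0.0892) and miR-1843a-5p (0.0913). This measure favours miRNAs that vary little, and all of them share the libraries and the rescaling. Reads moved between the 2 guides, which are nearly alike in sequence, would also keep their ratio steady, and this was not tested.

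**Figure D1:**
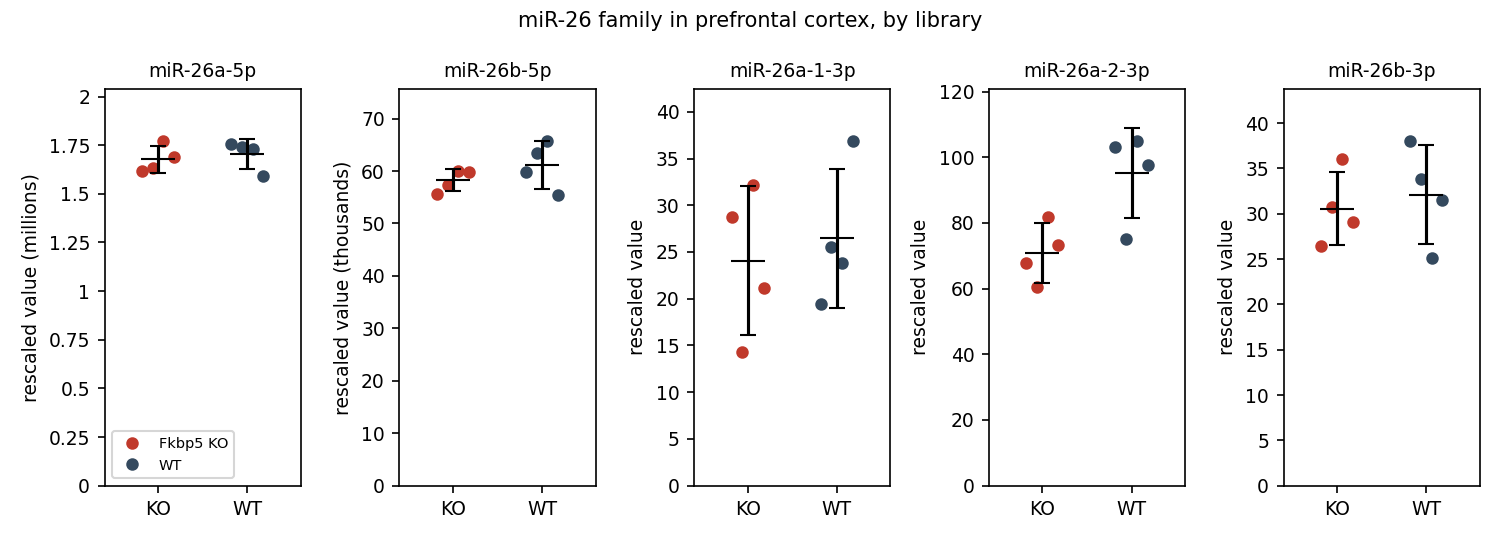
Rescaled value of each family member in every library, with Fkbp5 knockout at the left and wild type at the right of each panel; points are libraries, bars the mean ± SD (n = 4 each), and the vertical axes start at 0 and differ in scale. The guides lie close together across libraries, and miR-26a-2-3p has the widest gap between the group means relative to its level, with 3 of 4 knockout libraries below every wild-type library.

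The passenger strands were present at far lower values than the guides. miR-26a-2-3p, from the Ctdsp2 locus, was the highest, listed at 59, 59, 84 and 83 in knockout replicates 1, 2, 4 and 5, and at 111, 91, 88 and 90 in wild-type replicates 1, 2, 3 and 4. All 4 knockout values lie below all 4 wild-type values as listed. After rescaling the groups overlapped, with knockout replicate 4 at 81.9 and wild-type replicate 2 at 75.0. As deposited, the groups did not overlap for 1.50% of the 600 tested miRNAs.

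miR-26b-3p, the passenger of the Ctdsp1 locus, was listed at 23, 30, 37 and 33 in knockout replicates 1, 2, 4 and 5, and at 41, 41, 21 and 29 in wild-type replicates 1, 2, 3 and 4. miR-26a-1-3p, from the Ctdspl locus, was listed at 25, 14, 33 and 24 in the same knockout replicates, and at 21, 31, 20 and 34 in the same wild-type replicates. For both, the knockout and wild-type ranges overlapped. miR-26a-2-3p was above both of the other passengers in 8 of 8 libraries. miR-26b-3p was above miR-26a-1-3p in 6 of 8, so the order of this pair is not larger than its spread between libraries. By mean rescaled value the passengers took ranks 387 (miR-26a-2-3p), 484 (miR-26b-3p) and 502 (miR-26a-1-3p) of 1915. At such low values a small difference is a large share: the coefficient of variation over the 8 rescaled libraries was 28.7% for miR-26a-1-3p, against 4.07% for miR-26a-5p.

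Among 159 hairpins with an average of 20 or more on each arm, the ratio of the higher to the lower arm was largest for miR-26a. miR-26a-5p was 16781, 21895, 15546 and 17894 times the sum of miR-26a-1-3p and miR-26a-2-3p in knockout replicates 1, 2, 4 and 5, and 14331, 17303, 13434 and 11829 times in wild-type replicates 1, 2, 3 and 4. The ranges overlap, and knockout replicates 2 and 5 lie above all wild-type libraries. miR-26b-5p was 2108, 1869, 1663 and 2059 times miR-26b-3p in the knockout replicates, and 1571, 1879, 2625 and 1763 times in the wild-type replicates. The ratio was higher for miR-26a than for miR-26b in 8 of 8 libraries, by 8.48-fold on average. Ligation and amplification act differently on each sequence, so ratios between strands describe these libraries and not molecules in the cell.

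These 159 were drawn from 778 hairpins listed with both arms, and among them miR-26a ranked at 1 and miR-26b at 7 by the size of the log2 arm ratio. The mean log2 ratio was 13.95 for miR-26a and 10.88 for miR-26b, against a median size of 3.63 over the 159. The nearest to miR-26a were let-7f, at 13.68, and miR-128, in which the 3p arm is the higher, at -13.32. The minimum keeps out hairpins whose lower arm is hardly seen. With the higher arm at 1000 or more and no minimum on the lower, an alternative chosen after seeing the data, miR-26a ranked at 6 and miR-26b at 31 of 166, behind miR-99a, miR-1a, let-7g, miR-21a and miR-320, whose lower arms had means from 0 to 8.38.

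**Figure D2:**
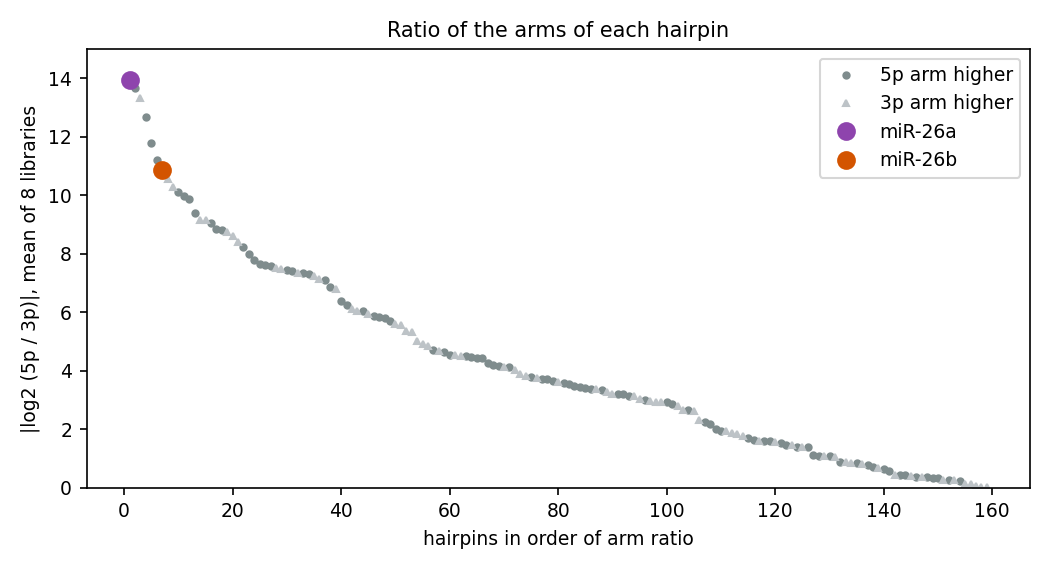
Size of the log2 arm ratio, 5p over 3p, as the mean of all 8 libraries, for 159 hairpins in falling order; circles have the higher 5p arm and triangles the higher 3p arm. miR-26a, at 13.95, stands first and miR-26b, at 10.88, at place 7.

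Because the miR-26a passengers differ in sequence, they can be listed by locus, as the shared guide cannot. miR-26a-2-3p made up 70.2, 80.8, 71.8 and 77.6% of the miR-26a passengers in knockout replicates 1, 2, 4 and 5, and 84.1, 74.6, 81.5 and 72.6% in wild-type replicates 1, 2, 3 and 4. Each library thus listed more of the passenger of the Ctdsp2 locus than of the Ctdspl locus, by 2.36- to 4.21-fold in the knockout and 2.65- to 5.29-fold in wild type. These shares need not hold for the guide, whose origin was not measured, or for the amount that each locus makes. The locus contrast was moderate beside those of other miRNAs made from numbered loci: of 14 pairs whose arms each averaged 10 or more (30 were listed), miR-26a took place 9 by size. Its mean log2 ratio of the locus 1 arm to the locus 2 arm was -1.72, with let-7f (-1.82) and miR-24 (-1.52) next to it. The pairs ran from miR-219a (-9.84) to miR-7a (0.02) in size. let-7a-1-3p and let-7c-2-3p had the same mean and SD in each group (1379 ± 269 rescaled in the knockout, 1731 ± 329 in wild type). The let-7a and let-7c pairs, at places 2 and 3, thus share an arm value and are not separate locus contrasts.

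**Figure D3:**
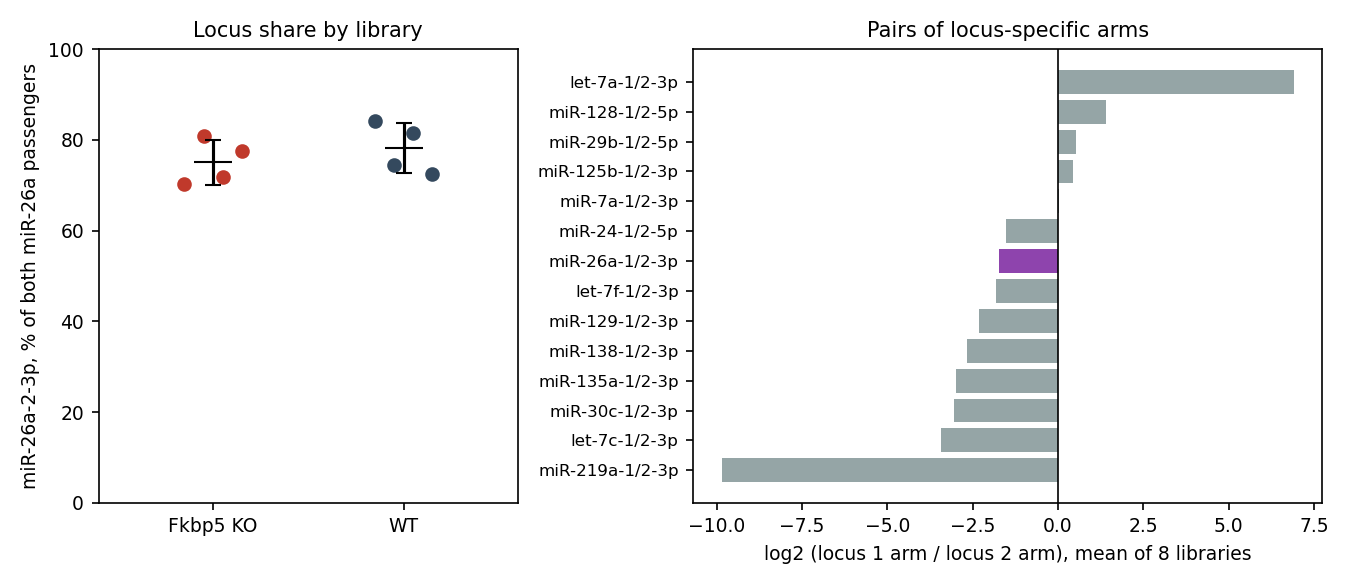
Left, miR-26a-2-3p as a percentage of both miR-26a passengers in each library, Fkbp5 knockout left of wild type, with mean ± SD (n = 4 each); right, the mean log2 ratio of the locus 1 arm to the locus 2 arm for 14 pairs, with miR-26a in purple. The miR-26a-2-3p share lies between 70.2 and 84.1% in all 8 libraries, and the miR-26a bar, at -1.72, is among the shorter ones.

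The study compared these miRNAs between Fkbp5 knockout and wild-type cortex. The guides were at nearly the same level in both genotypes. miR-26a-5p averaged 1678422 ± 69383 rescaled in the knockout and 1704896 ± 75882 in wild type (SD, n = 4 each), and the log2 fold change was -0.02 with an SE of 0.08. miR-26b-5p averaged 58218 ± 2082 in the knockout and 61146 ± 4515 in wild type, a log2 fold change of -0.07 ± 0.09. The 95% intervals of limma were -0.19 to 0.14 for miR-26a-5p and -0.26 to 0.13 for miR-26b-5p. With upper quartile scaling the log2 fold change of miR-26a-5p turned to 0.03.

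Among the passengers, miR-26a-2-3p differed most. It averaged 70.8 ± 9.06 in the knockout and 95.2 ± 13.8 in wild type, and 3 of 4 knockout libraries were below every wild-type library. The log2 fold change on the log2(value + 1) scale was -0.42 ± 0.17 (95% interval -0.80 to -0.04), with an unadjusted p of 0.0347, place 21 of 600. It did not pass correction, with an adjusted p of 0.952 by limma. The unadjusted p was above 0.05 when knockout replicate 1, 2 or 5 or wild-type replicate 1, 3 or 4 was left out (0.0522 to 0.096), with no filter on low values (0.0543), with upper quartile scaling (0.0732), in the values as deposited (0.0832), and in the 6 libraries numbered 1, 2 and 4 with a replicate block (0.124) or without one (0.119). It stayed under 0.05 without knockout replicate 4 (0.0293) or wild-type replicate 2 (0.0131), and without the mean-variance trend (0.0225). The same held with 0.5 or 5 added in place of 1 (0.0341 and 0.0360), and with scaling by the median of ratios (0.0359) or the library total (0.0447). In every fit the adjusted p was at least 0.765 by limma. Summed oligodendrocyte markers (miR-219a-5p and miR-338-3p, both above 0) ran from 659 to 821 rescaled in the knockout and from 708 to 927 in wild type. Summed hindbrain markers (miR-10a-5p, miR-10b-5p and miR-196a-5p) ran from 211 to 480 in the knockout and from 373 to 612 in wild type, and the smooth muscle pair of miR-143-3p and miR-145a-5p from 38212 to 65553 in the knockout and from 57768 to 76858 in wild type. The oligodendrocyte sum was mostly miR-338-3p (mean 690 in the knockout, 803 in wild type), with miR-219a-5p at 27.1 and 41.7. The smooth muscle sum was mostly miR-143-3p (46394 and 61237), with miR-145a-5p at 1965 and 2139. miR-338-3p was at a log2 fold change of -0.22 ± 0.13 (unadjusted p = 0.126 by limma) and miR-145a-5p at -0.08 ± 0.22 (unadjusted p = 0.722 by limma). The 7 tested of 8 markers of epithelium and olfactory bulb, the miR-200 and miR-183 families, were at a median log2 fold change of -0.96, lower in the knockout for 7 of 7 under each scaling, and none had an unadjusted p under 0.05. They ran from -0.10 ± 0.51 for miR-96-5p, whose means were 24.6 in the knockout and 24.3 in wild type, to -1.32 ± 0.82 for miR-429-3p. All 8 markers of this list summed to between 962 and 6021 rescaled in the knockout and between 1733 and 6094 in wild type. Not every list was lower. Leukocyte and microglia markers, 2 higher and 2 lower, summed to between 9150 and 13065 in the knockout and between 8719 and 10611 in wild type. Choroid plexus had 1 marker higher and 1 lower, and striated muscle 1 higher and 2 lower. Endothelium and red blood cells had 2 lower each. The part of these markers in the difference of miR-26a-2-3p was not tested.

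The remaining passengers were too variable for a narrow answer. miR-26a-1-3p averaged 24.1 ± 7.97 in the knockout and 26.5 ± 7.42 in wild type, with a log2 fold change of -0.15 ± 0.30 (95% interval -0.81 to 0.50). miR-26b-3p averaged 30.6 ± 4.07 in the knockout and 32.1 ± 5.42 in wild type, with a log2 fold change of -0.06 ± 0.21 (-0.53 to 0.40). The direction of both turned when single libraries were left out.

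Of the 5 members 0 passed the adjusted threshold of limma, where 0.00% of the 600 tested miRNAs did. An unadjusted p under 0.05 was found for 1 of 5 members and for 4.17% of the 600. All 5 had a lower mean log2 value in the knockout (4 of 5 with upper quartile scaling), as had 46.3% of the 600, and the median log2 fold change was -0.07 for the members and 0.01 for all tested. The members share libraries and precursors and are not independent of each other.

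The balance of strands and loci was compared in the same way. The log2 ratio of miR-26a-5p to its passengers averaged 14.12 ± 0.21 in the knockout and 13.78 ± 0.23 in wild type, a difference of 0.34 ± 0.20 (SE; 95% interval -0.09 to 0.77), with an adjusted p of 0.975 by limma over 159 hairpins. For miR-26b the ratio averaged 10.88 ± 0.15 in the knockout and 10.89 ± 0.31 in wild type (difference -0.01 ± 0.20, adjusted p = 0.979 by limma). No hairpin passed the adjusted threshold (0.00%), and 3 had an unadjusted p under 0.05 (1.89%), with neither miR-26a nor miR-26b among them. These 3 were miR-433, miR-299a and miR-299b, the last 2 with nearly the same mean log2 ratio (-1.09 and -1.06). The 159 entries are names and need not be independent. The log2 ratio of miR-26a-1-3p to miR-26a-2-3p averaged -1.59 ± 0.38 in the knockout and -1.85 ± 0.47 in wild type, a difference of 0.26 ± 0.20 (95% interval -0.16 to 0.69), with an adjusted p of 0.741 by limma over 14 pairs, of which 0 passed (0.00%) and 1 had an unadjusted p under 0.05 (7.14%). With 1 library left out the difference ran from 0.09 without wild-type replicate 1 (unadjusted p = 0.703 by limma) to 0.42 without wild-type replicate 4 (unadjusted p = 0.0278, adjusted p = 0.389 by limma), and was also moved by more than 1.5 times without knockout replicate 1 (0.14) or 2 (0.41). The log2 ratio of miR-26b-5p to miR-26a-5p averaged -4.85 ± 0.03 in the knockout and -4.80 ± 0.07 in wild type, a difference of -0.05 ± 0.04 (two-sided exact permutation p = 0.314 over 70 arrangements, the smallest possible being 0.0286).

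**Figure D4:**
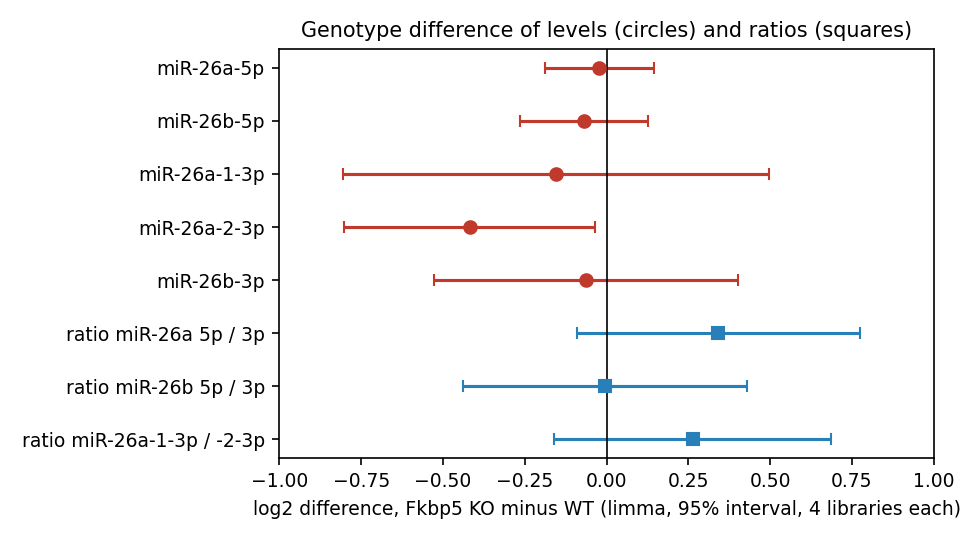
Difference between Fkbp5 knockout and wild type, knockout minus wild type, on the log2 scale with 95% intervals from limma (4 libraries each), for the levels of the 5 members (circles) and for 3 ratios between them (squares). The interval of miR-26a-2-3p, -0.80 to -0.04, is the only one that does not cross 0, and it did not pass correction over 600 miRNAs.

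miRNAs tied to the REST pathway did not pass the test either. REST is linked to a group of neuronal miRNAs that it represses or that act against it; of 9 such miRNAs, all tested, 5 had higher and 4 lower mean log2 values in the knockout (8 higher and 1 lower with upper quartile scaling; median log2 fold change 0.05), and 0 passed adjustment or an unadjusted 0.05, against 0.00% and 4.17% of the 600 tested miRNAs, of which 46.3% had lower values. The most abundant, miR-9-5p, was at -0.04 ± 0.09, the least abundant, miR-153-3p, at -0.01 ± 0.18, and the 1 with the smallest p, miR-9-3p, at -0.15 ± 0.11.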

How the data were processed

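Per the labels' protocols, small RNA of mouse prefrontal cortex was enriched on silica columns, made into libraries with a NEXTflex kit, selected by size on a gel and sequenced on an Illumina instrument. Per the submitters' processing notes, cutadapt 1.11, Bowtie 1.1.2, HTSeq 0.6.1p1 and edgeR were used with build mm10, in an order and with settings not given in the sources used here. The deposited values are normalized counts per the file headers, handled as a score and not as raw counts, so no count model was run. All values are whole numbers, and each whole number from 1 to 20 occurs in every library.

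Values were rescaled by a trimmed mean of log ratios (30% of ratios and 5% of levels trimmed at each end, no weights). A miRNA was tested with at least 10, scaled to the median library, in 4 libraries and a total of 15, which left 600. log2(value + 1) was fitted on genotype in limma 3.58.1 (R 4.3.3) with a mean-variance trend, and p-values were adjusted by Benjamini and Hochberg over all tested. Arm and locus ratios had 0.5 added to each arm, arms listed per locus were summed where the other arm is shared, and each family of ratios was fitted whole. RNAfold 2.7.2 gave folding energies. Of the mature names 1623 of 1915 matched RefSeq. The procedure was tested on simulated data. Members, lists and rules for naming miRNAs were chosen with earlier results of these data known. One further list of miRNAs is not reported here.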

Additional observations from a re-analysis of the deposited data

Results flagged for a closer look

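miR-26a-5p stood at 1592032 rescaled in wild-type replicate 4, against 1731435 to 1755328 in the other wild-type libraries, and was far from those 3 for their spread. Of 20 groups of 4 libraries examined for the members, their ratios and the family's share, this was the 1 set apart, and chance gives about 1 in 20. Without this library the log2 fold change of miR-26a-5p was -0.06.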

How the results depend on the processing

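Of 242 alternative values, 10 turned the sign of a tested difference. A further 28 changed the number past a threshold, by over 1.5 times or from or to 0. No miR-26 member or ratio passed the adjusted threshold in any fit. miR-26a-2-3p stayed lower in the knockout throughout (-0.53 to -0.35). Values of the other sign were found for miR-26a-5p under upper quartile scaling (0.0349), for miR-26a-1-3p without knockout replicate 2 or wild-type replicate 4 (-0.316 to 0.0624 with 1 library left out), for miR-26b-3p without knockout replicate 1 or wild-type replicate 1 (-0.165 to 0.0270) and for the arm ratio of miR-26b without knockout replicate 2 or 4 or wild-type replicate 3 (-0.10 to 0.14); the values in the report lie between -0.15 and -0.01. The filter of 10 per 1000000 left no passenger to test.

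The labels do not say that replicate numbers pair the libraries. Deviations of libraries with equal numbers correlated at 0.0858, -0.047 and 0.122, and number 4 alone matched best with itself. With a replicate block over the libraries numbered 1, 2 and 4, 3 miRNAs and 1 hairpin arm ratio passed the threshold, none of them of this family, and 44 miRNAs had an unadjusted p under 0.05. The miR-26b arm ratio was 0.11 there and in the same 6 libraries unblocked (40 miRNAs unadjusted). The unadjusted count of 25 miRNAs became 51 with no filter (1330 tested), 14 at 10 per 1000000 (324 tested) and 9 without rescaling (the cause was not tested). Omitting a library gave 18 to 39, with 39 when this was wild-type replicate 3. The locus pairs past the threshold ran from 0 to 1 with 1 library left out (1 without knockout replicate 2 or wild-type replicate 2), and those with an unadjusted p under 0.05 from 0 to 2 over all alternatives. The 3 hairpins with an unadjusted p under 0.05 became 15 under the block, 8 in the same 6 libraries unblocked, 5 with an arm minimum of 10, and from 1 on omitting knockout replicate 2 to 11 on omitting wild-type replicate 3. The median log2 fold change over the 600 miRNAs shifted by no more than 0.055 under other scalings. The fits on the same 6 libraries unblocked and the family share with 1 library left out (-0.256 to 0.344 percentage points) were chosen after seeing the data.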
